A study of Mus musculus with 22 samples.

Results

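Tuft cells were compared with enterocytes, the rare chemosensory cells of the secretory lineage against the mature absorptive cells of the mouse colon crypt. The members were chosen by their labels alone and were 10 of the 22 libraries of the series, namely 5 libraries of sorted tuft cells and 5 of sorted enterocytes. All came from the whole colon of wild type male C57BL/6N mice aged 5 to 7 weeks that carried no transgene and had no treatment. Crypts were taken apart with EDTA and mechanical force, without a protease, and live Epcam-positive cells without surface Cd31 or Cd45 were sorted. Tuft cells were then gated as Ckit-positive and high for Cd24, and enterocytes as negative for Cd24 and low or negative for Cd44. Every library of both cell types pooled more than 1 mouse, and libraries were made from total RNA with a low-input kit. Replicate libraries of a cell type came from different mice and sorts, and whether tuft and enterocyte libraries shared mice is not stated. The other 12 libraries were 3 of stem cells, 3 of absorptive progenitors (AbsPro), 4 of a gate of secretory progenitors, deep crypt secretory cells and goblet cells (SecPDG) and 2 of enteroendocrine cells (EEC).

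Both cell types descend from the stem cells at the crypt base. Enterocytes take up salt, water and short-chain fatty acids, detoxify what the lumen holds and are shed at the surface. Tuft cells, named for their apical bundle of microvilli, sense luminal signals through a cascade shared with the taste cells of the tongue and release cytokines, acetylcholine and eicosanoids, and their formation requires the transcription factor Pou2f3.

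The count files held 24421 genes, and 22781 passed the filter on low counts. Counts on genes ranged from 9930648 to 20892532 in the tuft libraries and from 5950619 to 12966128 in the enterocyte libraries. Reads with a unique place in the genome but outside annotated genes made up 43.4 to 68.05% of the uniquely placed reads in tuft cells and 66.8 to 83.1% in enterocytes. A background level was read from 1449 genes of 6 families that colon epithelium should not use, such as olfactory receptors. Those genes took 582, 1386, 1142, 1114 and 167 CPM (counts scaled to a fixed library total) in tuft libraries 1 to 5 and 3635, 2880, 3626, 733 and 1227 in enterocyte libraries 1 to 5. Enterocyte libraries 1, 2 and 3 thus held the most background and tuft library 5 the least, and the background expected for a gene of a given exon length is quoted where it bears on a value. Tuft library 5 also stood apart in RNA content, with 251433 normalized counts on cytosolic ribosomal protein genes where the other tuft libraries had 97937 to 138403. Spearman's rho between libraries, over genes with a mean not under 50, was 0.896 to 0.972 among tuft libraries, 0.866 to 0.961 among enterocyte libraries and 0.730 to 0.894 between them. Names of the count files had 1 form for tuft cells and SecPDG and another for enterocytes and the other gates, so a difference in handling between the 2 forms cannot be told apart from the cell type. In bulk RNA, fewer cells of a type and less RNA per cell cannot be told apart either.

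Genes were compared with edgeR's quasi-likelihood test. A normalized count is a count scaled to the mean library size after TMM normalization, and values are means ± SD over 5 libraries unless stated. A gene was called when its adjusted p was under 0.01 (Benjamini-Hochberg) and its mean was at least 50 normalized counts over the 10 libraries. Under this rule 1044 genes were higher in tuft cells and 394 were higher in enterocytes, which is 4.58% and 1.73% of the genes tested. The libraries of both cell types did not overlap for 957 of the 1044 and for 369 of the 394. Such separation was found for 7.14% of all tested genes with tuft cells above and for 4.9% with enterocytes above. Among the called genes, 109 were at least 8-fold higher in tuft cells and 114 at least 8-fold higher in enterocytes. For no called gene with a known exon length did the expected background reach 20% of its mean in the higher cell type. It did reach 20% of the lower mean for 107 of the tuft genes and 37 of the enterocyte genes, whose fold changes are limited by it. Without the genes that had no such length the calls were 1041 and 391.

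Most of the defining markers went with the labels. Of 12 tuft markers 11 were tested and 9 were called higher in tuft cells, and their summed level was 32195 to 89237 normalized counts in the tuft libraries and 1083 to 1671 in the enterocyte libraries. Of 10 enterocyte markers 9 were tested and 7 were called higher in enterocytes, with sums of 55631 to 82838 in enterocytes and 6141 to 16781 in tuft cells. Gnb3 and Gng13, a pair of G protein subunits, were the tested tuft markers without a call. Guca2a and Guca2b were the tested enterocyte markers without a call, and both leaned toward tuft cells (log2 fold changes 0.62 and 1.19). Transcripts of the surface proteins used in the gates followed the gates and are given only as a check: Cd24a was at 35250 ± 7267 in tuft cells and 1152 ± 839 in enterocytes, Kit at 9354 ± 1624 and 509 ± 250.1, and Cd44 at 4305 ± 869 and 343 ± 85.3. Epcam, positive in both gates, was at 18925 ± 6101 and 20329 ± 6675 and was not called (edgeR, adjusted p = 0.89). Ptprc, which encodes Cd45, was at 1671 ± 781 in tuft cells and 115 ± 35.2 in enterocytes, although both gates were negative for surface Cd45, and background could supply 72.4% of the enterocyte counts.

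The balance between the directions depended on the scaling. After TMM the median log2 fold change was 0.12 over the 14449 genes whose mean reached 50, and under 3 other scalings it was -0.33 to -0.22. Tuft calls made up 72.6% of all calls with TMM, 54.1% with DESeq2 size factors and 44.1% with TMM from abundant genes, and library totals gave 901 calls each way. Of the main calls, 747 tuft genes and 393 enterocyte genes were called the same way under all 4 scalings, and none changed sign. Leaving out tuft library 4 gave 2037 tuft calls, leaving out tuft library 5 gave 745 and leaving out enterocyte libraries 1, 2 and 3 gave 470 with 245 enterocyte calls. Since background was uneven, the comparison was also made between libraries of like background, tuft libraries 2, 3 and 4 against enterocyte libraries 4 and 5, an alternative chosen after the values were seen. It gave 147 and 259 calls from 5 of the 10 libraries, all 147 and 209 of the 259 being among the main calls of the same direction.

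**Figure D1:**
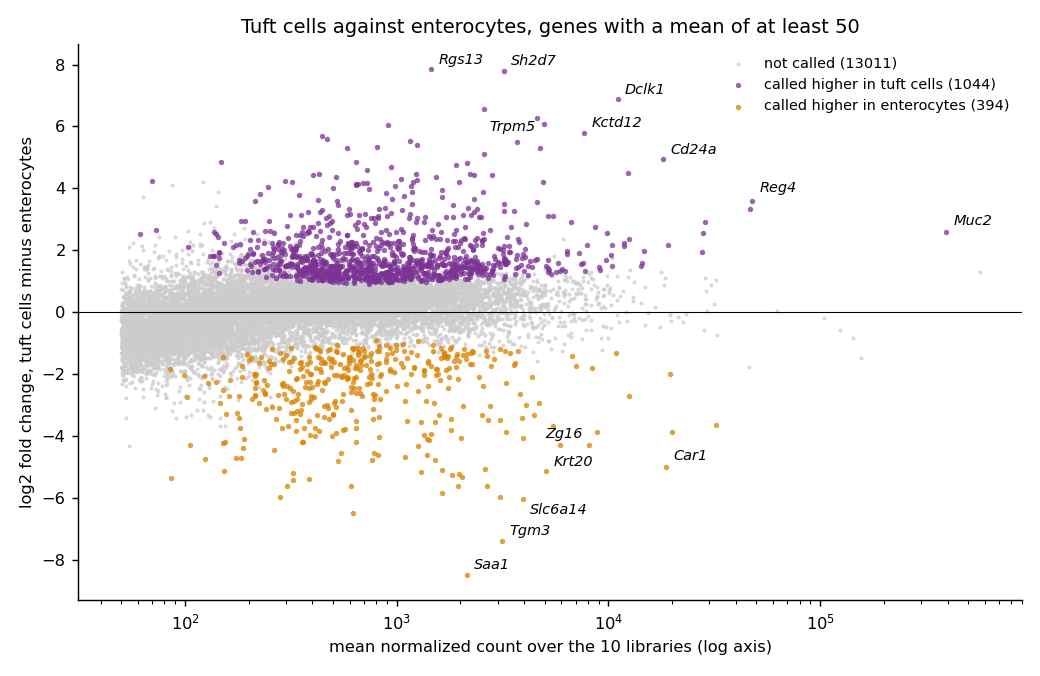
Log2 fold change (tuft cells minus enterocytes) against the mean normalized count over the 10 libraries on a log axis, for genes with a mean of at least 50. Purple points are the 1044 genes called higher in tuft cells, orange points the 394 called higher in enterocytes, and grey points were not called. Rgs13, Sh2d7 and Dclk1 lie highest, Saa1 and Tgm3 lowest, and Muc2 lies farthest to the right of the called genes.

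Rgs13, Sh2d7 and Dclk1 had the largest differences toward tuft cells among genes with a mean of at least 1000 in the higher cell type, and all 3 stood in the list of tuft identity genes. Of 28 listed tuft identity genes, 27 were tested and 24 were called higher in tuft cells, with a median log2 fold change of 4.77 where all genes with a mean of at least 50 had 0.12. Of these 21 were called under all 4 scalings, 23 or 24 with any 1 library left out and 18 between the libraries of like background. These genes and the other lists used here were chosen with results of these data known, so their direction is a description of this cell type and not independent evidence.

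Dclk1, a microtubule-associated kinase and the usual histological tuft marker at GRCm38 chr3:55242364-55539068, had 23983, 11726, 23205, 31011 and 19591 normalized counts in tuft libraries 1 to 5. It had 275, 173, 226, 89 and 162 in enterocyte libraries 1 to 5. Every tuft library was thus far above every enterocyte library (log2 fold change 6.89, SE 0.57, adjusted p = 1.3e-10), although background could account for 37.5% of the enterocyte counts. Rgs13, which speeds the shutdown of G protein signals (chr1:144138654-144177372), had 2280, 1686, 2303, 4740 and 3493 in tuft cells against 5.85, 9.18, 15, 10.3 and 22.2 in enterocytes. Its difference was among the largest of all genes (log2 fold change 7.85, SE 0.47, adjusted p = 1.1e-12), with 60.2% of the enterocyte level at background. Trpm5, the cation channel that ends the taste cascade, had 10537, 5506, 9379, 14576 and 8641 in tuft cells and 195, 124, 226, 82.1 and 95.5 in enterocytes (log2 fold change 6.07, SE 0.58, adjusted p = 1.9e-09).

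Transcription factors of this group were lower in level than the markers but well separated. Pou2f3 had 1842, 1333, 2346, 3852 and 2392 normalized counts in tuft cells and 140.5, 90.6, 181, 29.7 and 96.9 in enterocytes (log2 fold change 4.45, SE 0.55, adjusted p = 2.9e-07). Spib, an Ets factor of lymphoid cells, was 41.8-fold higher in tuft cells (2425 ± 679 against 57.9 ± 30.8). The homeobox genes Hmx2 and Hmx3 differed by 4.86 and 5.69 on the log2 scale, their enterocyte levels of 9.77 ± 5.77 and 16.7 ± 7.28 being largely background. For none of these did the tuft and enterocyte libraries overlap.

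Other genes of the tuft identity list encode adaptors, kinases and surface proteins. Sh2d7, an SH2 domain adaptor, was at 6383 ± 2111 in tuft cells and 28.8 ± 13.7 in enterocytes (log2 fold change 7.80, SE 0.61, adjusted p = 3.6e-11). The adaptor Fyb was at 9129 ± 3692 and 118 ± 34.9, and the Tec family kinase Bmx at 1787 ± 905 and 26.8 ± 13.1. Background could supply 43.5% of the enterocyte level of Sh2d7 and 52.4% of that of Bmx. The log2 fold changes of Fyb and Bmx were 6.27 and 6.05. Vav1, Ptpn6 and Matk followed with 3.89, 3.23 and 4.69. The sialic acid-binding lectin Siglecf was 40.3-fold higher in tuft cells. Kctd12, a partner of GABA-B receptors, had 18213, 8046, 17186, 19696 and 12351 in tuft cells against 366, 324, 202, 194 and 271 in enterocytes, and Tuba1a, an alpha-tubulin outside the list, was 46.5-fold higher. Outside the 2 cell types, Dclk1 was at 1782 and 3940 in the 2 EEC libraries and had means of 153 in SecPDG, 13.9 in AbsPro and 12.2 in the stem cell gate, and Avil was at 687 and 733 in EEC.

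**Figure D2:**
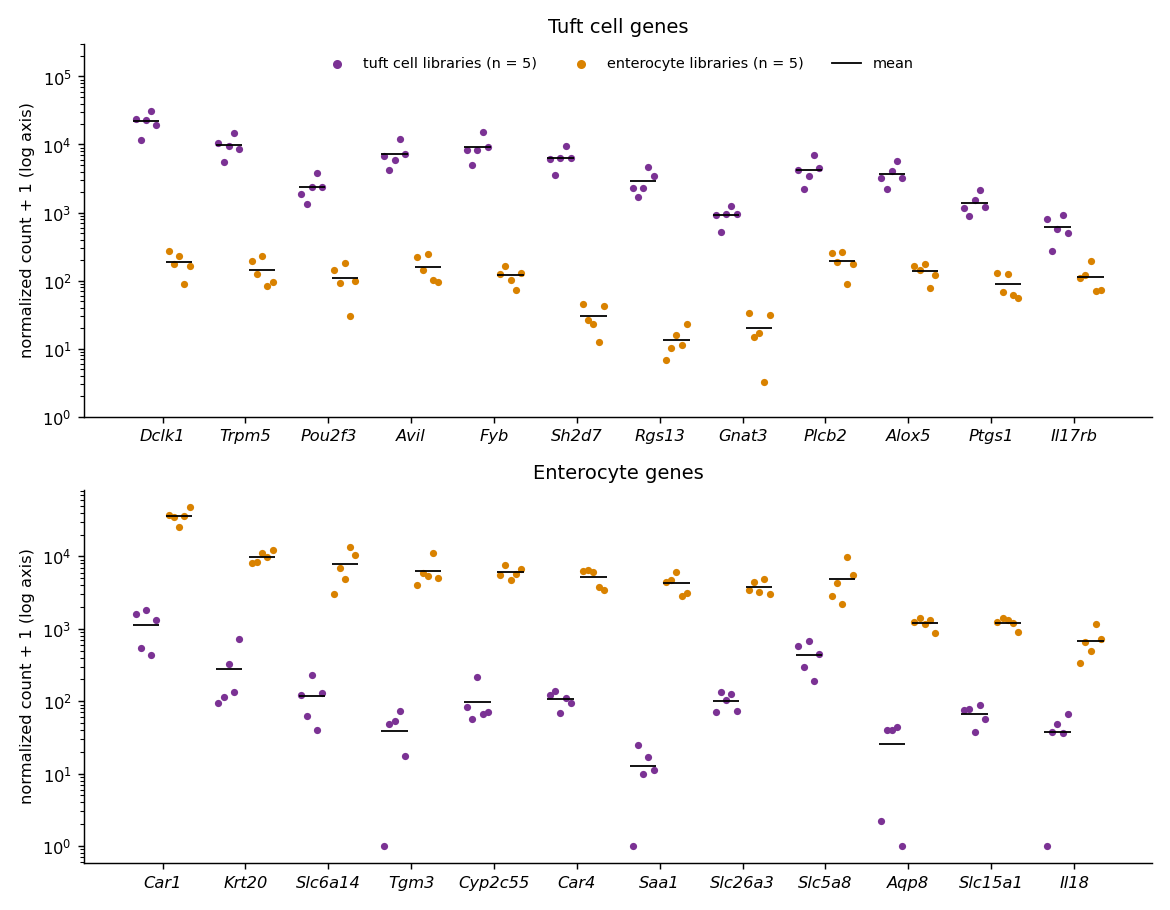
Normalized count plus 1 on a log axis of 12 genes higher in tuft cells (top) and 12 higher in enterocytes (bottom). Each point is a library, purple for tuft cells and orange for enterocytes (n = 5 each), and black lines are means. The 2 groups do not overlap for any of the 24 genes.

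Of the 26 tested genes of taste signaling, 6 were higher in tuft cells and none was higher in enterocytes, where the other scalings called 1, and 12 more with a mean of at least 50 were not called. Gnat3, the alpha subunit gustducin, was at 919 ± 266 in tuft cells and 19 ± 12.5 in enterocytes (log2 fold change 5.61, SE 0.63, adjusted p = 1.2e-07). Plcb2, the phospholipase of the cascade, was at 4266 ± 1740 and 192 ± 69.8 (log2 fold change 4.47, SE 0.42, adjusted p = 1.4e-09). Itpr2, a calcium release channel of the ER, was 4.02-fold higher in tuft cells, and Trpm5 was called as given above. The beta subunit Gnb3 was at 55.6 ± 20.5 in tuft cells and 66.5 ± 27.6 in enterocytes and was not called (adjusted p = 0.92). The gamma subunit Gng13 had 43.9, 143, 131, 266 and 237 in tuft cells and 4.39, 9.18, 28.9, 0 and 4.15 in enterocytes, and did not pass the test (adjusted p = 0.033) although the libraries did not overlap. Ffar2, a receptor of short-chain fatty acids, was 8.8-fold higher (1189 ± 574 against 135 ± 41.6), and Chat, which makes acetylcholine, differed by 2.75 on the log2 scale. Among regulators of G protein signaling 4 of 23 tested genes were higher in tuft cells and none was higher in enterocytes. Beside Rgs13 these were Rgs2 (1604 ± 589 against 154 ± 28.9), Rgs22 (879.9 ± 719 against 114 ± 47) and Rgs17 (417 ± 196 against 142 ± 18.8). Tuft library 4, at 2141, was far above the other tuft libraries in Rgs22. Under each of the other scalings 2 of the 4 were called, 2 genes of the list were called without enterocyte libraries 1, 2 and 3 or between libraries of like background, and Rgs17 was called under 15 of 26 alternatives.

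Genes that make prostaglandins and leukotrienes were higher in tuft cells where called, and 3 genes that take up or break down these lipids were called higher in enterocytes. Of 20 tested genes of eicosanoid synthesis, 6 were higher in tuft cells and none was higher in enterocytes, under each of the 4 scalings, and 11 with a mean of at least 50 were not called. Pla2g4a, which frees arachidonic acid, was 3.9-fold higher. Ptgs1, cyclooxygenase 1, had 1152, 902, 1527, 2173 and 1190 normalized counts in tuft cells and 130.3, 66.5, 126, 60.4 and 54 in enterocytes (log2 fold change 3.99, SE 0.59, adjusted p = 6.5e-06), and Hpgds, which makes prostaglandin D2, was 8.16-fold higher. Alox5, which starts leukotriene synthesis, had 3254, 2232, 4019, 5699 and 3243 and 164, 140.0, 176, 77.6 and 122 (log2 fold change 4.76, SE 0.44, adjusted p = 1.1e-09). Its activating protein Alox5ap and Ltc4s, the leukotriene C4 synthase, differed by 4.46 and 4.24. The libraries did not overlap for any of these 6 genes, and 3 were called between the libraries of like background.

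On the other side, Hpgd, the enzyme that inactivates prostaglandins, was at 917 ± 298 in tuft cells and 2555 ± 949 in enterocytes (log2 fold change -1.48, SE 0.28, adjusted p = 3.3e-04), and the groups overlapped. Slco2a1, which carries prostaglandins into cells, was at 223 ± 51.8 and 903 ± 203 (log2 fold change -2.02, SE 0.34, adjusted p = 6.6e-05). Dpep1, a dipeptidase that converts leukotriene D4, was 11.5-fold higher in enterocytes. These were the 3 of 20 tested genes of the list called higher in enterocytes, and the prostaglandin E2 receptor Ptger4 was the 1 called higher in tuft cells (1084 ± 317 against 390.3 ± 82.7). The Ptger4 call was lost under each of the other scalings, and 10 genes of the list with a mean of at least 50 were not called.

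Cytokine genes were called in both directions. Il17rb, a subunit of the receptor of interleukin 25, was at 612 ± 251 in tuft cells and 112 ± 50.3 in enterocytes (log2 fold change 2.44, SE 0.44, adjusted p = 1.3e-04). Il4ra and Il13ra1, the subunits of the receptor of interleukins 4 and 13, were 3.62-fold and 5.1-fold higher in tuft cells. Il25 itself, the cytokine that tuft cells are known to release, was low, with 46.4, 40.4, 22.8, 21.9 and 29.3 in tuft cells and 0, 4.59, 25.4, 7.98 and 11.1 in enterocytes, and was not called (adjusted p = 0.59). Il18, a cytokine of barrier epithelium, had 0, 36.6, 46.8, 35.7 and 66.1 in tuft cells against 337, 652, 489, 1183 and 734 in enterocytes (log2 fold change -4.18, SE 0.81, adjusted p = 3.8e-04). Il1rn, the antagonist of interleukin 1, was 6.15-fold higher in enterocytes, Ifngr1, a receptor subunit of interferon gamma, 3.18-fold and Il22ra1, a subunit of the receptor of interleukin 22, 2.51-fold higher. Ccl25, a chemokine, was 2.76-fold higher there. Of 33 tested genes 3 were higher in tuft cells and 5 in enterocytes, and the enterocyte count was 9 or 10 under the other scalings. Between libraries of like background 1 gene was called higher in tuft cells and 4 in enterocytes.

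Cytoskeletal genes were called in both directions. Villin, the main bundling protein of microvilli, was at 8803 ± 1526 in tuft cells and 5700 ± 2120 in enterocytes and was not called (adjusted p = 0.38). Its relative advillin, Avil, had 6866, 4215, 5867, 11994 and 7299 and 219.5, 141, 241, 102 and 94.2 (log2 fold change 5.50, SE 0.52, adjusted p = 1.6e-09). Espn, another bundling protein, was 2.74-fold higher in tuft cells, while Tmigd1, an adhesion protein of enterocyte microvilli, was 8.95-fold higher in enterocytes. Of 30 tested genes of apical actin and microvilli 3 were higher in tuft cells and 2 in enterocytes, and 7 to 11 were higher in enterocytes under the other scalings. Among keratins, Krt18 (31335 ± 9231 against 6916 ± 3488) and Krt23 (1378 ± 422 against 75.5 ± 17.3) were higher in tuft cells. Krt20, a keratin of mature surface cells, had 94, 115, 329.9, 131 and 728 in tuft cells and 8055, 8431, 11012, 9704 and 12343 in enterocytes (log2 fold change -5.14, SE 0.50, adjusted p = 2.8e-09). Krt19 was 4.04-fold higher in enterocytes, and Krt8 was not called (22750 ± 4343 against 33950 ± 15937, adjusted p = 0.52). The 3 keratin calls toward tuft cells were 1 between libraries of like background. Claudins were called both ways as well, with Cldn4 (16.5-fold) and Cldn8 (6.77-fold) higher in enterocytes and Cldn15 (5.04-fold) and Cldn2 (4.16-fold) higher in tuft cells. Of 22 tested genes of tight junctions and claudins 2 were higher in tuft cells and 3 in enterocytes, and 6 to 9 were higher in enterocytes under the other scalings. Between libraries of like background 1 was called higher in tuft cells and 2 in enterocytes, and Cldn8 was not called.

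Saa1 and Tgm3 had the largest differences toward enterocytes among genes with a mean of at least 1000 in the higher cell type, and neither stood in a list. Saa1, a serum amyloid A protein at chr7:46740497-46742980, had 0, 24, 8.85, 16.1 and 10.04 normalized counts in tuft libraries 1 to 5 and 4442, 4748, 6169, 2855 and 3128 in enterocyte libraries 1 to 5 (log2 fold change -8.49, SE 0.66, adjusted p = 3.3e-11). Its near-identical relative Saa2 may share reads with it. Tgm3, a transglutaminase that crosslinks proteins of surface epithelium, had 0, 46.7, 51.8, 72.5 and 16.7 and 4061, 5844, 5375, 11006 and 5083 (log2 fold change -7.39, SE 0.62, adjusted p = 1.6e-10). Background could supply 47.9% and 25.1% of their counts in tuft cells. Emp1, Slfn4 and S100g, a calcium-binding protein, differed by -5.63, -5.33 and -5.84. Nts, the peptide neurotensin, was at 1225 ± 659.9 in enterocytes and 13.3 ± 9.05 in tuft cells. The enteroendocrine hormones Gcg (2677 ± 1402 against 108 ± 133) and Pyy (558 ± 276 against 74.2 ± 50.3), were higher there too, and Pyy was called under 15 of 26 alternatives. Neither Gcg nor Pyy was called without enterocyte libraries 1, 2 and 3 or between libraries of like background. The 10 enteroendocrine markers summed to 8132 to 32845 in enterocytes and to 4774, 1663, 4009, 3855 and 28313 in tuft libraries 1 to 5. In the 2 libraries of the EEC gate itself Nts was at 3.62 and 155 and Gcg at 0 and 2.43, and the part of enteroendocrine transcripts in these results was not tested.

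Ion transport genes were called in both directions. Slc26a3, the chloride-bicarbonate exchanger of the colon surface, had 69.6, 135, 104, 125 and 71.9 in tuft cells and 3420, 4466, 3242, 4939 and 3059 in enterocytes (log2 fold change -5.24, SE 0.49, adjusted p = 1.1e-09). The sodium-proton exchangers Slc9a2 and Slc9a3 were 11.4-fold and 11.3-fold higher in enterocytes, the proton-potassium pump Atp12a 38.2-fold and the phosphate carrier Slc20a1 14.1-fold. Slc12a2, the basolateral carrier that loads chloride for secretion, was higher in tuft cells (17098 ± 4130 against 3775 ± 2609), as were the potassium channel Kcnma1 (3.86-fold) and the scaffold Slc9a3r2 (8.6-fold). Scnn1a, a subunit of the epithelial sodium channel, was not called (2583 ± 414 against 2090 ± 356, adjusted p = 0.69). In all, 5 of 38 tested genes were higher in tuft cells and 8 in enterocytes. The 5 tuft calls were 3 without enterocyte libraries 1, 2 and 3 and 0 between libraries of like background, where 7 genes were called higher in enterocytes in either case. The SecPDG mean of each of those 5 was at or above the tuft mean.

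Carbonic anhydrases and aquaporins each held members on either side. Car1, a cytosolic carbonic anhydrase at chr3:14766216-14808368, was the most abundant of them, with 1601, 544, 1817, 430.1 and 1308 in tuft cells and 37935, 35594, 25140, 35673 and 47980 in enterocytes (log2 fold change -5.00, SE 0.58, adjusted p = 1.1e-07). The membrane-bound Car4 was 49.6-fold higher in enterocytes and Car2 was not called (adjusted p = 0.39). Car8, which lacks the enzyme activity, was 11.1-fold higher in tuft cells. Aqp8 had 1.22, 39.1, 39.2, 42.6 and 0 in tuft cells against 1245, 1395, 1151, 1309 and 883 in enterocytes, and Aqp4 was 8.13-fold higher in enterocytes. Aqp1 was the exception, at 1854 ± 639 in tuft cells and 110.0 ± 27.4 in enterocytes (log2 fold change 4.07, SE 0.35, adjusted p = 2.8e-10), and its SecPDG mean was 2044.

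Of 48 tested nutrient and drug transporters, 15 were higher in enterocytes and 1 in tuft cells, with a median log2 fold change of -1.21. All 15 held under the other scalings, which called 22 there, and 10 genes of the list were called there between libraries of like background and 8 without enterocyte libraries 1, 2 and 3. Slc6a14, which takes up amino acids, had 121, 60.6, 233, 39.1 and 129 in tuft cells and 3032, 6857, 4858, 13617 and 10399 in enterocytes (log2 fold change -6.06, SE 0.49, adjusted p = 7.9e-11). Carriers of short-chain fatty acids were among them, Slc5a8 (11.3-fold) and Slc16a1 (5.22-fold). The peptide carrier Slc15a1 was 18.2-fold higher in enterocytes, ferroportin Slc40a1, which exports iron, 24.5-fold, and both subunits of the basolateral bile acid carrier, Slc51a and Slc51b, 6.29-fold and 6.63-fold. Slc7a5, a carrier of large amino acids, was the 1 higher in tuft cells (652 ± 126 against 106 ± 24.8), where 3 were called without tuft library 4 or enterocyte library 1 or 4. The AbsPro mean was at or above the enterocyte mean for 7 of the 15.

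Detoxification genes gave the largest enterocyte group. Of 53 tested genes, 20 were higher in enterocytes and none in tuft cells (median log2 fold change -1.27), and all 20 were also called under the 3 other scalings. Between libraries of like background 15 genes of the list were called, and 13 without enterocyte libraries 1, 2 and 3. They spanned oxidation, hydrolysis and conjugation. Cyp2c55, a cytochrome P450 of the colon, had 83, 55.5, 214, 65.6 and 69.4 in tuft cells and 5563, 7596, 4717, 5786 and 6710 in enterocytes (log2 fold change -5.96, SE 0.54, adjusted p = 6.4e-10). Cyp3a13, Cyp2c68 and Cyp2c65 differed by -4.54, -3.75 and -3.38. The carboxylesterases Ces2c (42.3-fold), Ces2a (14.3-fold) and Ces2e (13.6-fold) and the sulfotransferase Sult1b1 (2914 ± 1473 in enterocytes against 107 ± 63.1 in tuft cells) followed. Related P450 and carboxylesterase genes may share reads. Both monoamine oxidases, Maoa and Maob, were 8.02-fold and 7.04-fold higher in enterocytes. For 13 of the 20 genes the AbsPro mean was at or above the enterocyte mean. Ugt1a1 was not called (179.6 ± 102 against 423 ± 79.7, adjusted p = 0.065).

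A Myc antagonist led the transcription factors higher in enterocytes. Mxd1, which opposes Myc, had 895, 693, 825, 878 and 646 in tuft cells and 8866, 10686, 11380, 10351 and 9413 in enterocytes (log2 fold change -3.69, SE 0.34, adjusted p = 8.1e-10). Id1 was 5.5-fold, the bile acid receptor Nr1h4 2.43-fold, the xenobiotic receptor Nr1i2 2.43-fold and Klf4 2.68-fold higher in enterocytes. Hnf4a, a nuclear receptor of intestinal epithelium, was not called (5484 ± 952 against 6792 ± 2847, adjusted p = 0.69), nor was Hnf4g (390.3 ± 111 against 722 ± 177, adjusted p = 0.047). Ehf, an Ets factor, was 4.74-fold higher in tuft cells. Among 39 tested absorptive and intestinal factors 1 was higher in tuft cells and 5 in enterocytes, and the enterocyte count was 12 to 16 under the other scalings. It fell to 2 without tuft library 3, to 3 without tuft library 2 or 4 or enterocyte library 2 or 5, and to 3 between libraries of like background. The tuft count was 3 without tuft library 4 and 2 without enterocyte library 1 or 4.

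Promoter windows of the called genes were searched for the letters bound by 2 classes of factor, the octamer ATGCAAAT of POU2 factors, to which Pou2f3 belongs, and CAAAGTCCA of HNF4 factors. The windows ran from 250 bases before to 50 after each gene's start in RefSeq (GRCm38.p6), both strands were read, the motifs share the letters CAAA but neither contains the other, and 16762 of the 22781 tested genes had a window. A gene could have several windows and was counted when any of them held the letters. The octamer stood in a window of 19 of 797 tuft genes (2.38%) and of 7 of 291 enterocyte genes (2.4%). It stood in 1.82% of all tested genes and in 1.97% of all 27025 genes with a window. The HNF4 letters stood in a window of 0 of 797 tuft genes and of 9 of 291 enterocyte genes (3.09%). They stood in 0.573% of all tested genes and in 0.555% of all genes with a window. These are matches of letters and not sites known to be bound. The windows of 30 bases printed here, read along the gene's strand, show the letters in capitals in 3 tuft genes with the octamer (first 3 lines) and in 4 enterocyte genes with the HNF4 letters, among them 3 of detoxification and Trpv6, a calcium channel.
Kctd12, chr14:102982779-102982808: cagcgtttagcATGCAAATgcattccccgc
Hpgds, chr6:65144886-65144915: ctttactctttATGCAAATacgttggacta
Il4ra, chr7:125552121-125552150: tggggtggggcATGCAAATaagccagcgat
Sult1b1, chr5:87536178-87536207: gtgagcaggcCAAAGTCCAttcctggtggc
Cyp2c65, chr19:39060880-39060909: gatgttggaaCAAAGTCCActgggaggaga
Cyp2c68, chr19:39741159-39741188: atcattgaaaCAAAGTCCAattggaagaga
Trpv6, chr6:41636535-41636564: ctgggtatccCAAAGTCCAggggccagctc

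Growth factor genes were called in both directions. The Egf-family ligands Areg and Hbegf were 17.3-fold and 8.85-fold higher in enterocytes, and Erbb2, a member of the Egf receptor family, was 2.47-fold higher. Areg had 0, 8.83, 43, 18.4 and 32.6 in tuft cells and 357, 452, 253, 363 and 371 in enterocytes. Etv5, a transcription factor induced by Fgf signals, was 19.1-fold higher in tuft cells (log2 fold change 4.25, SE 0.29, adjusted p = 1.7e-12), and the receptors Fgfr2 and Fgfr3 were 2.48-fold and 2.4-fold higher. Bmp7 (338 ± 145 against 66.7 ± 15.3) was higher in tuft cells and Fgfbp1, an Fgf-binding protein (91.7 ± 43.3 against 909 ± 241), in enterocytes. Kitl, the ligand of Kit, was at 559 ± 137 in tuft cells and 1075 ± 341 in enterocytes and missed the threshold (adjusted p = 0.012). In this list 7 of 44 tested genes were higher in tuft cells and 4 in enterocytes, and the tuft count fell to 4 without tuft library 5, enterocyte library 2 or enterocyte library 3. Between libraries of like background 2 genes were called each way. For 5 of the 7 tuft genes the SecPDG mean was at or above the tuft mean, Fgfr2 among them (8754 in SecPDG, 4014 in tuft cells). Immediate early genes were lower in tuft cells where called, Egr1 by 4.39-fold, Atf3 by 9.77-fold and Junb by 2.31-fold, except Nr4a1, which was 3.74-fold higher and not called under the other scalings. The 3 enterocyte calls were 1, Atf3, without enterocyte libraries 1, 2 and 3 and 0 between libraries of like background. Fos (736 ± 444 against 1559 ± 278) and Jun (2296 ± 586 against 3048 ± 849) were not called. The interferon genes Ifit2 and Rsad2 were 7.79-fold and 4.88-fold higher in enterocytes, where 1 gene of their list was called between libraries of like background, and Ddx58 and Ifitm3 were higher in tuft cells under TMM alone of the 4 scalings.

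Several markers of goblet and deep crypt secretory cells were higher in the tuft libraries. Muc2, the gel-forming mucin, had 970200, 518817, 755045, 377862 and 753527 normalized counts in tuft cells and 95343, 64556, 100230, 110242 and 194508 in enterocytes (log2 fold change 2.58, SE 0.65, adjusted p = 0.006). It took 2.92 to 6.68% of all counts on genes in tuft libraries and 0.683 to 1.42% in enterocyte libraries. Of 9 goblet markers 5 were higher in tuft cells, including Retnlb (23645 ± 16616 against 1053 ± 1217), Spink4 (84596 ± 63388 against 8320 ± 8938) and the goblet factor Spdef (10.4-fold). Clca1 and Fcgbp, also abundant in goblet cells, were not called (97344 ± 84293 against 111952 ± 63134 and 98995 ± 50476 against 149019 ± 52887). Zg16, a lectin of surface goblet cells, was higher in enterocytes (785 ± 313 against 15394 ± 2632, log2 fold change -4.29). The goblet calls numbered 2 between libraries of like background. All 4 deep crypt secretory markers were higher in tuft cells, among them Reg4 (88412 ± 45577 against 7333 ± 8045) and Agr2 (50555 ± 29285 against 6720 ± 5718), and Kit is both in this list and in the gate. Between libraries of like background 1 of the 4 was called.

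The summed goblet markers lay at 803751 to 1252700 in tuft cells, while enterocyte libraries held 238026 to 716495 and SecPDG libraries 787525 to 3225900. The deep crypt secretory markers summed to 84849 to 249914, 4232 to 37869 and 173223 to 314879 in the same order. The tuft libraries thus overlapped the SecPDG libraries in both sums, while the defining tuft markers, at 32195 to 89237 in tuft cells, were at 978 to 1529 in SecPDG.

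The level of each tuft gene in SecPDG split the 1044 genes. For 710 of them the SecPDG mean was at or above the tuft mean, for 252 it lay between 25% of the tuft mean and that mean, and for 82 it was under 25%. These are levels set side by side, with no test. None of the 24 called tuft identity genes was in the first class and 21 were in the last, as were 5 of the 6 taste genes and 5 of the 6 eicosanoid genes. In every other gate, the mean was under 25% of the tuft mean for 37 genes. Of the 394 enterocyte genes 125 had an AbsPro mean at or above the enterocyte mean, and 21 were under 25% of it in every other gate.

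**Figure D3:**
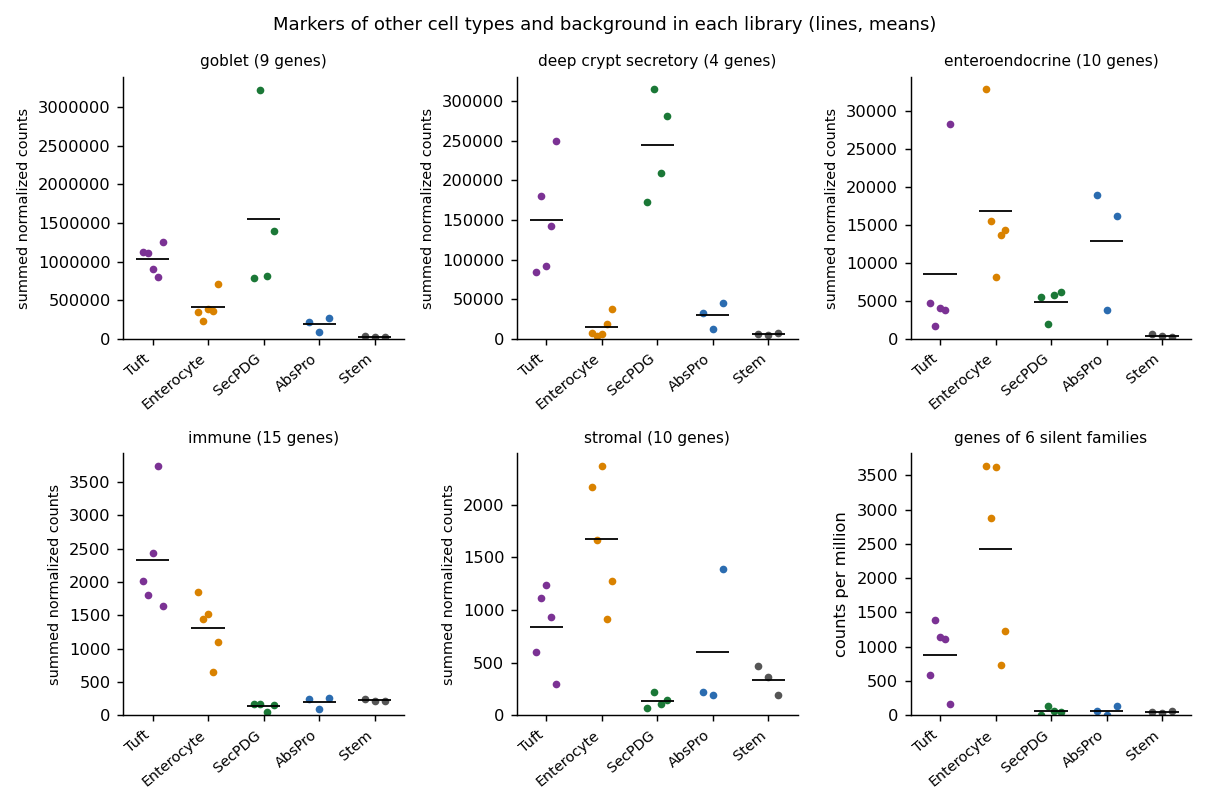
Summed normalized counts of markers of 5 other cell types in each library, and CPM on the genes of 6 silent families (bottom right), in tuft cells, enterocytes, SecPDG, AbsPro and stem cells. Points are libraries and lines are means. Tuft libraries lie with SecPDG in goblet and deep crypt secretory markers, and enterocyte libraries reach the highest background.

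Of 36 tested genes of ER folding and the unfolded protein response 21 were higher in tuft cells, 15 were not called and none was higher in enterocytes, where the other scalings called 1, with a median log2 fold change of 1.32 (0.89 to 1.00 under the other scalings). Hspa5, the chaperone BiP, had 13284, 14314, 13444, 12289 and 23672 in tuft cells and 4085, 4127, 2768, 6489 and 9957 in enterocytes (log2 fold change 1.49, SE 0.36, adjusted p = 0.0038). Xbp1, a transcription factor of this response, was 2.98-fold higher, the mucosal sensor Ern2 3.64-fold, and the disulfide isomerase Pdia5 8.34-fold, while Hsp90b1 was not called (23490 ± 8189 against 12944 ± 6873, adjusted p = 0.18). The SecPDG mean was at or above the tuft mean for 20 of the 21, the exception being Ero1lb (828 in tuft cells, 154 in SecPDG), and the part of the goblet and deep crypt secretory transcripts in these results was not tested. The count fell to 13 without tuft library 5 and to 12 without enterocyte library 2, to 6 without enterocyte libraries 1, 2 and 3, and to 1 between libraries of like background. It was 28 with the expected background taken off.

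Of 28 tested genes of Notch signaling and secretory fate, 15 were higher in tuft cells and 1, Klf4, in enterocytes, and 11 with a mean of at least 50 were not called. The Klf4 call was lost without tuft library 1, 2 or 3 or enterocyte library 4 or 5. Atoh1, the switch to the secretory lineage, had 4147, 3537, 2903, 2522 and 5347 in tuft cells and 686, 556, 889.5, 1297 and 1137 in enterocytes (log2 fold change 2.02, SE 0.45, adjusted p = 0.0019). The Notch ligands Dll1, Dll4 and Jag2 were 3.29-fold, 2.96-fold and 3.05-fold higher, and the target Hes1 was not called (422 ± 157 against 665 ± 316, adjusted p = 0.3). Creb3l1 and Creb3l4, transcription factors of secretory cells held at the ER, were 5.88-fold and 8.34-fold higher. For 12 of the 15 the SecPDG mean was at or above the tuft mean. Nov, a matricellular protein, differed most (15.3-fold higher). Between libraries of like background 1 gene of the list was called higher in tuft cells, and without enterocyte libraries 1, 2 and 3 there were 8.

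Of 25 tested stem cell and Wnt genes 15 were higher in tuft cells and none in enterocytes, 8 with a mean of at least 50 were not called, and 2 were called higher in enterocytes under each other scaling. Lgr5, a receptor of crypt base cells, had 1651, 787, 1029, 1209 and 915 in tuft cells and 234, 157, 187, 138 and 154 in enterocytes (log2 fold change 2.68, SE 0.30, adjusted p = 4.0e-08), with 26.8% of the enterocyte level at background. Axin2, a Wnt target, was 4.88-fold higher, Msi1, an RNA-binding protein, 7.65-fold, Sox9 8.61-fold and Ascl2 6.04-fold, and the last pair also stood among the tuft identity genes. Ascl2 was called under 16 of 26 alternatives. Lgr5 was at 2599 in stem cells and 527 in SecPDG. For 7 of the 15 the SecPDG mean was at or above the tuft mean, Axin2 among them (2154 in SecPDG, 1699 in tuft cells). The list gave 10 calls without enterocyte libraries 1, 2 and 3 and 6 between libraries of like background. Cd44 is both in this list, where its log2 fold change of 3.65 was the highest, and in the enterocyte gate. Its call is counted in the 15, the 10 and the 6.

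Of 40 tested genes of replication and mitosis 22 were higher in tuft cells, none was higher in enterocytes and 18 were not called. Top2a had 3813, 3913, 3990, 3288 and 6005 in tuft cells and 436, 754, 533, 1245 and 1173 in enterocytes (log2 fold change 2.34, SE 0.33, adjusted p = 3.5e-06), and Mcm4, Mcm6 and Plk1 were 4.17-fold, 3.65-fold and 4.32-fold higher. Mki67 was not called (11741 ± 3323 against 4733 ± 3152, adjusted p = 0.021). All 22 had a SecPDG mean at or above the tuft mean. The 40 genes summed to 42313 ± 10678 normalized counts in tuft cells and 16046 ± 6633 in enterocytes, below 81456 ± 9739 in SecPDG (n = 4). The count was 11 to 15 under the other scalings, 12 without tuft library 5, 14 without enterocyte library 2, 8 without enterocyte libraries 1, 2 and 3, and 0 between libraries of like background. With the expected background taken off the count was 25. The part of progenitor cells in this difference was not tested, and that of background was not tested beyond this subtraction.

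**Figure D4:**
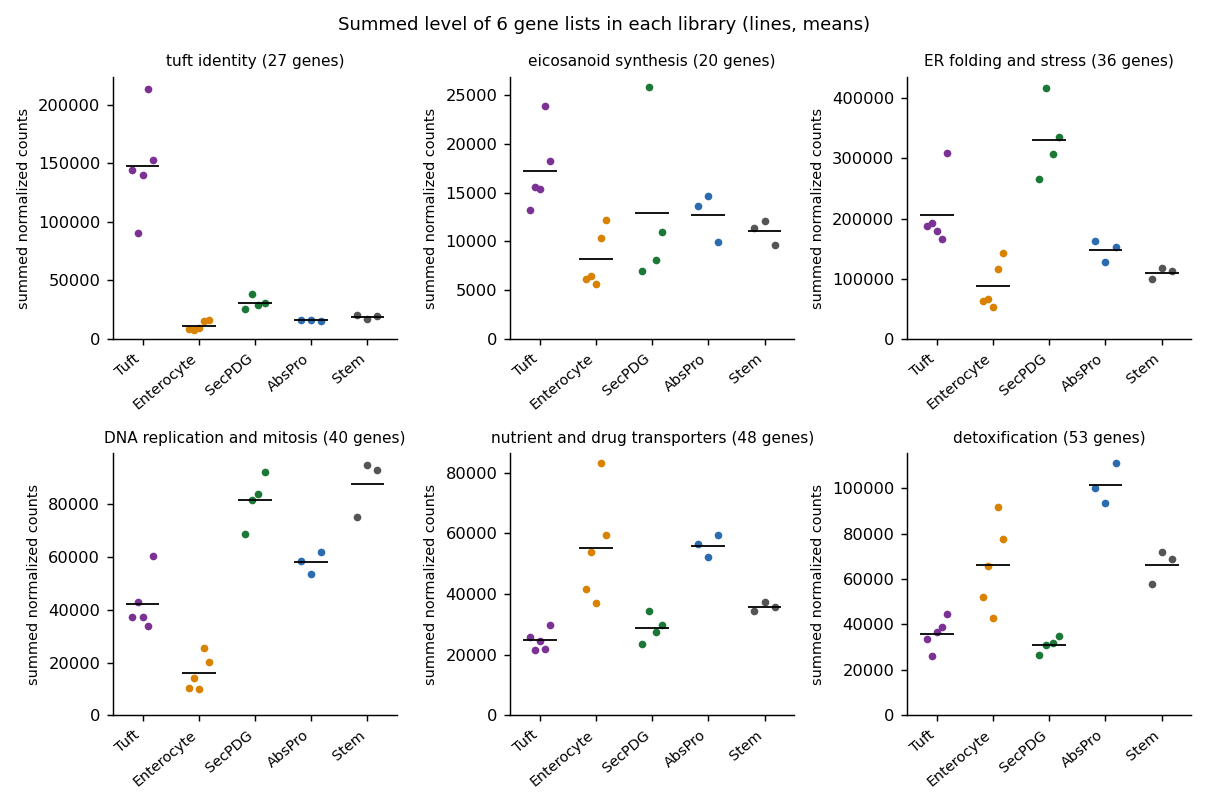
Summed normalized counts of 6 gene lists in each library of tuft cells, enterocytes, SecPDG, AbsPro and stem cells. Points are libraries and lines are means. Tuft identity is highest in tuft cells, ER folding and replication are higher in SecPDG than in tuft cells, transporters are higher in enterocytes and AbsPro than in the other gates shown, and detoxification genes have their highest mean in AbsPro.

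Core metabolism gave few calls in the main fit. Of 74 tested genes of the respiratory chain 2, Uqcrb and Atp5k, were called higher in enterocytes and none in tuft cells. Their median log2 fold change was -0.31, and the other scalings called 16 to 25 of them higher in enterocytes. With 1 library left out, the enterocyte calls ranged from 0 without tuft library 1 or enterocyte library 5 to 8 without tuft library 5. They were 8 without enterocyte libraries 1, 2 and 3 and 12 between libraries of like background. None of 80 tested cytosolic ribosomal protein genes was called in the main fit, and their median was 0.23 with TMM and -0.19 to -0.07 otherwise. The other scalings called 0 or 1 of them higher in tuft cells and 2 or 3 in enterocytes, and DESeq2's Wald test called 1 and 4. Without enterocyte library 4 there were 4 tuft calls. Among 34 genes of fatty acid oxidation and ketogenesis 1, Acsl1, was higher in tuft cells (1238 ± 176 against 416 ± 107), and 0 between libraries of like background. Under the other scalings 6 or 7 genes of the list were called higher in enterocytes. The glycolysis list had 1 gene higher in tuft cells, Pck1, whose enzyme serves gluconeogenesis, and 2 higher in enterocytes, Eno3 among them. Cholesterol synthesis had 2 of 24 higher in tuft cells, Lss among them, and neither was called under all scalings. These small counts moved with single libraries: without tuft library 4 cholesterol synthesis had 7 calls. The Pck1 call was lost without tuft library 1 or 5 or enterocyte library 2 or 3. Both enterocyte calls of the glycolysis list were lost without enterocyte library 4. Guca2a and Guca2b, the peptides that stimulate fluid secretion, were at 7458 ± 4150 and 247 ± 118 in tuft cells and 4847 ± 1685 and 109 ± 49.2 in enterocytes and were not called, nor was their receptor Gucy2c (8319 ± 1449 against 4023 ± 1537, adjusted p = 0.044). Prkg2, the kinase downstream, was 3.07-fold higher in enterocytes and was not called between libraries of like background.

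Genes of regulated secretion gave few calls. Of 37 tested, 6 were higher in tuft cells, among them the hormone convertase Pcsk1 (507 ± 302 against 137 ± 37.5), Ptprn2 (5.29-fold), Rab3d (4.11-fold) and Syt7 (2.87-fold), and 1 was higher in enterocytes. The 6 tuft calls were 4 without enterocyte libraries 1, 2 and 3 and 1 between libraries of like background, and the enterocyte call was lost without tuft library 2, 3 or 4 or enterocyte library 1 or 3. The SecPDG mean was at or above the tuft mean for 5 of the 6. Of 23 tested genes of antigen presentation 1 was called, H2-T3, 4.5-fold higher in enterocytes. Each other scaling called 4 genes of the list there, and none was called without enterocyte libraries 1, 2 and 3 or between libraries of like background.

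Markers of cells from other tissues were low. The 15 tested immune markers summed to 1647 to 3744 in tuft cells and 646 to 1847 in enterocytes, and Ptprc, the 1 called, was the largest part in tuft cells by its mean. Cd3e (23.7 ± 22.1 against 59.4 ± 27) and Cd3d (10.9 ± 12.6 against 44.7 ± 16.9), which define T cells, were not called, and background could supply 39.2% and 31.2% of the Cd3e counts in tuft cells and enterocytes. The stromal markers summed to 296 to 1237 and 915 to 2373, endothelial markers to 326 to 937 and 549.7 to 1383, nerve markers to 72.8 to 235 and 198 to 564, mast cell markers to 35.1 to 219 and 119 to 339.5, and the 1 tested red blood cell marker to 0 to 101 and 42.2 to 99.7. No gene of these 5 lists was called.

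**Figure D5:**
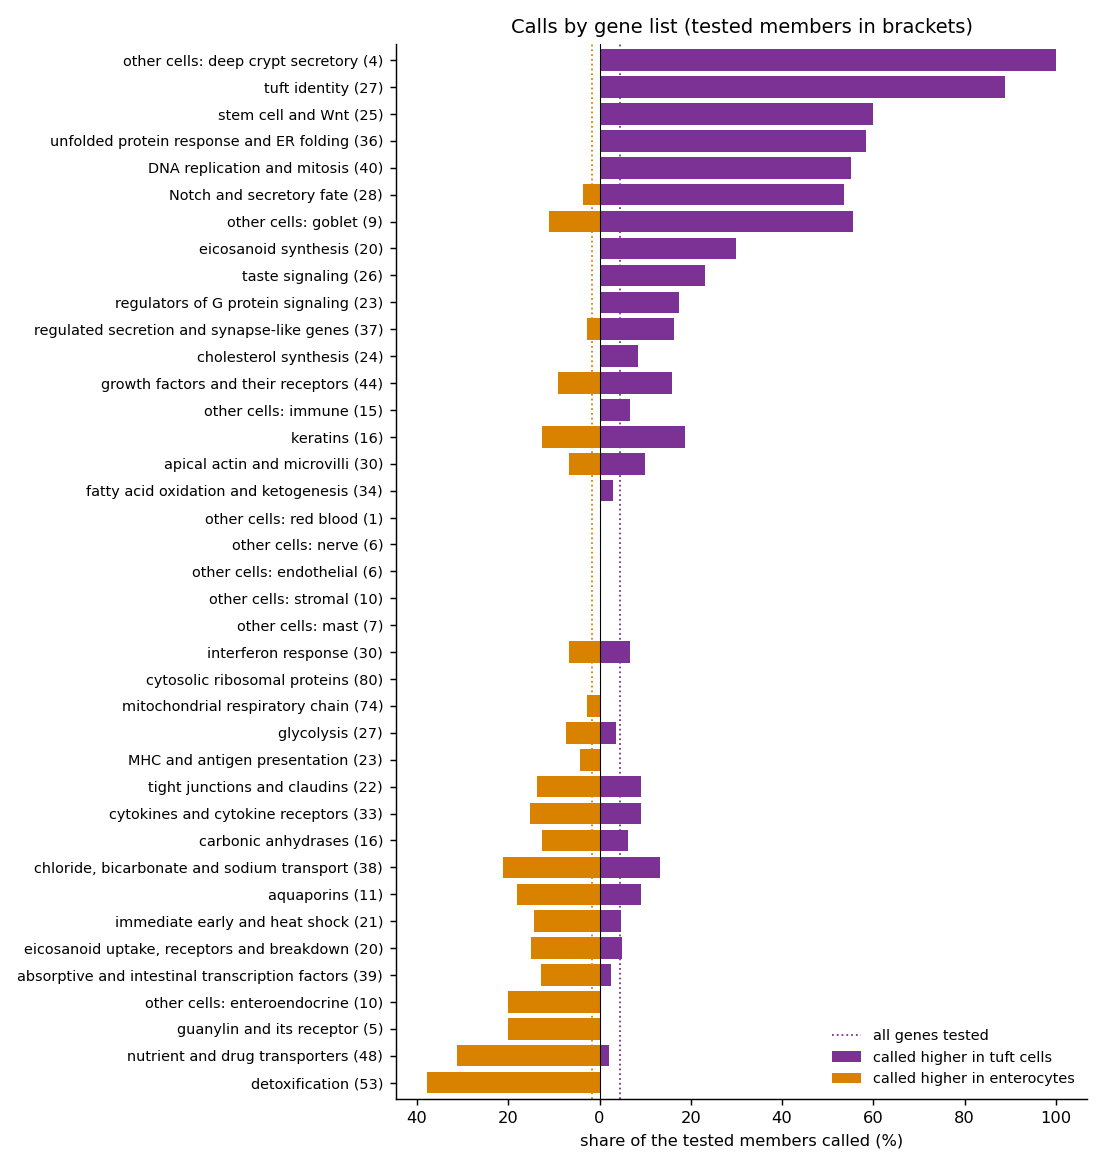
Share of the tested members of each gene list called higher in tuft cells (purple, to the right) and in enterocytes (orange, to the left), in percent. Dotted lines are the shares among all genes tested, 4.58% and 1.73%. Tuft identity and deep crypt secretory genes lead on the tuft side and detoxification genes on the enterocyte side.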

How the data were processed

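Cells were sorted from the colon, and total RNA was made into libraries with a low-input kit and sequenced as paired ends. Per the submitters' processing notes and the study's methods, reads were trimmed, checked with FastQC 0.11.7, aligned to mm10 with STAR 2.5.2a, sorted with SAMtools 1.3 and assigned to genes by HTSeq 0.6.1p1 without strand, so that reads of a gene and of an overlapping or antisense partner could not be told apart. The authors deposited raw read counts per gene, 1 file per library, with no normalization; 5 entries per file that name no gene were left out, and they held 43.4 to 83.1% of the uniquely placed reads of the 10 libraries as reads outside genes.

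All 22 libraries were fitted together with edgeR 4.0.16 (R 4.3.3; filterByExpr, TMM, quasi-likelihood F test, cell type as the sole term), and the contrast tuft cells minus enterocytes was tested with Benjamini-Hochberg adjustment over all 22781 genes. The SE was taken from the fold change and its F statistic. Calls needed an adjusted p below 0.01 with a mean not under 50 normalized counts. The p-values rest on the spread among libraries of the same cell type, estimated over the 22 libraries of the fit. Those of tuft cells, enterocytes, SecPDG and EEC pooled mice, and those of stem cells and AbsPro did not. The script was tested on simulated data. Background was the count per kilobase of exon over silent gene families, scaled by each gene's exon length, and exon lengths were found for 24046 of 24421 genes. Gene positions are GENCODE GRCm38, and promoter windows are from RefSeq GRCm38.p6.

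The gene lists and alternatives were chosen with earlier results of these data known. Named genes were, for each list, its first 3 members, up to 4 called members per direction with the largest difference and no overlap between libraries, and the 12 with the largest difference per direction among all genes with a mean of at least 1000 in the higher cell type, plus sorting markers. Other genes of the lists were named after their values were seen, and a few genes are not reported here. Alternatives were 3 other scalings, DESeq2 1.42.0, other filters and thresholds, thinning of counts to 5950619 per library, subtraction of background, a replicate block and each library left out, and 2 were added after the values were seen.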

Additional observations from a re-analysis of the deposited data

Results flagged for a closer look

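In 494 groups of 5 libraries, the highest or lowest library was set against the others, and 41 groups (8.3%) had a gap to the nearest library above 0.71 of the whole range. Chance gives about 1 in 20. Tuft library 5 gave 28 of them and was the highest tuft library in all but 1. Its summed normalized counts were 10567 for eicosanoid uptake and breakdown genes (other tuft libraries 6864 to 7094), 64655 for fatty acid oxidation and ketogenesis genes (other tuft libraries 39126 to 44022), 26798 for guanylin pathway genes (other tuft libraries 13832 to 16660), 208000 for mitochondrial respiratory chain genes (other tuft libraries 105473 to 117751), 54087 for glycolysis genes (other tuft libraries 35815 to 38588), 251433 for cytosolic ribosomal protein genes (other tuft libraries 97937 to 138403), 308623 for unfolded protein response and ER folding genes (other tuft libraries 165204 to 192087), 36531 for regulated secretion and synapse-like genes (other tuft libraries 24590 to 26478), 28313 for enteroendocrine genes (other tuft libraries 1663 to 4774). Its endothelial markers summed to 326, below the 827 to 937 of the others. Single genes of this library, in normalized counts against the range of the other tuft libraries, were Agr2 102312 against 33287 to 44995, Chga 8969 against 439 to 1466, Chgb 16486 against 811 to 3070, Creb3l4 3795 against 1670 to 2270, Epcam 29668 against 14463 to 17362, Gcg 340.5 against 18.9 to 96.6. In the same library, further values were Guca2b 451 against 164 to 244, H2-T3 189.9 against 90.9 to 112, Hpgd 1447 against 746 to 825, Hsp90b1 37984 against 18583 to 21667, Hspa5 23672 against 12289 to 14314, Krt19 12861 against 5462 to 6951. The remaining genes of this library were Mcm6 2774 against 1180 to 1550, Ndufa3 1105 against 361 to 505, Rpl4 20997 against 10084 to 11373, Top2a 6005 against 3288 to 3990, Tph1 1380 against 119 to 342, Zg16 1316 against 549.7 to 769.

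Among the other tuft libraries, Cyp2c55 was highest in library 3 at 214 (others 55.5 to 83), Rgs22 was highest in library 4 at 2141 (others 389 to 718), Syt13 was lowest in library 1 at 0 (others 58.1 to 78.4), Tmigd1 was highest in library 1 at 155 (others 36.7 to 65.6). Among enterocyte libraries, Axin2 was highest in library 4 at 594 (260.4 to 332), Chga was highest in library 1 at 8567 (2327 to 3768), Dll1 was highest in library 4 at 762 (260.4 to 403), Il4ra was lowest in library 3 at 288 (422 to 451), Ptger4 was highest in library 4 at 536 (335 to 373). Further, Retnlb was highest in library 5 at 3197 (167 to 735), Spink4 was highest in library 5 at 23901 (1992 to 7538), Syt13 was highest in library 1 at 241 (60.4 to 107), Tgm3 was highest in library 4 at 11006 (4061 to 5844). Leaving out tuft library 5 lowered the calls for ER folding from 21 to 13 and for replication and mitosis from 22 to 12, and raised those of the respiratory chain higher in enterocytes from 2 to 8.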

How the results depend on the processing

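The 1044 genes higher in tuft cells became 2340 in a fit of the 10 libraries alone, 1737 at an adjusted p under 0.05, 1726 with background taken off, 470 without enterocyte libraries 1, 2 and 3 and 147 between libraries of like background, the last pair chosen after the values were seen. The 394 genes higher in enterocytes became 1223 with DESeq2's Wald test, 853 with DESeq2 size factors, 901 with library totals, 1090 with TMM from abundant genes, 245 without enterocyte libraries 1, 2 and 3 and 259 between libraries of like background. With any 1 library left out, tuft calls ranged from 724 (without enterocyte library 2) to 2037 (without tuft library 4), with 1559 and 1490 without enterocyte libraries 1 and 4, and enterocyte calls ranged from 313 (without tuft library 4) to 385 (without enterocyte library 3). The remaining alternatives moved neither count by over 1.5 times. The cause of these shifts was not tested.

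The labels number the libraries alike in both cell types, and whether like numbers share mice is not stated. Deviations of same-numbered libraries from their group means had correlations of -0.07, 0.22, 0.27, -0.44 and 0.53. Tuft library 5 had 0.68 with enterocyte library 4 and -0.60 with enterocyte library 1. Libraries with unlike numbers thus varied together as strongly, and the correlations cannot decide whether the numbers pair libraries. With the replicate number as a block the calls were 1214 and 416, and 1028 and 375 of them were main calls. Of 5485 values of the 211 named genes under 26 alternatives each, 5176 stayed on their side of the threshold, 83 of them, from 27 genes called in neither fit, with another sign, 220 fell below it, 89 passed it and 0 called genes changed sign. Of the 144 called, 131 were called in every alternative that left out no library and 76 under all 26. Of 2184 counts of called list members, 1875 stayed within 1.5 times.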

Other observations

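Some genes higher in enterocytes were also high in other gates. Car1 had means of 67469 normalized counts in AbsPro and 36464 in enterocytes, and 3466 and 79379 in the 2 EEC libraries, so that its EEC level rests on 1 library. Slc26a3 had 2680 in AbsPro and 359.8 and 4438 in EEC, against 3825 in enterocytes and 46.5 in SecPDG. Mxd1 was higher in enterocytes (10139) than in AbsPro (1264). Etv5, 19.1-fold higher in tuft cells than in enterocytes, had 3611 in SecPDG and 2381 in tuft cells. Hmx3 was at 175 and 285 and Chat at 607 and 228 in EEC, and their means were under 30 in stem cells, AbsPro and SecPDG. Apart from the EEC values these are means of 3 to 5 libraries per gate, set side by side with no test.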
